A study of Mus musculus with 2 samples.

Results

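Blood endothelial cells line the arteries, capillaries and veins of the gut wall, and 83 such cells were found among 15242 kept cells of mouse small intestine, 37 of 7329 in the library labelled control and 46 of 7913 in the library labelled model. A cell was taken when its barcode had at least 500 UMIs (unique molecular identifiers, each counting 1 captured transcript), at least 200 genes and at most 25% of UMIs from mitochondrial genes, with UMIs of at least 3 of the 7 genes Cdh5, Kdr, Flt1, Plvap, Eng, Emcn and Pecam1. It also had to hold no UMI of Prox1 (lymphatic endothelium), Epcam (epithelium) or Cd3e, Cd3d and Cd3g (T cells). The cells came from droplet-based 10x Genomics sequencing of small intestine freed of mesentery and Peyer's patches, flushed, and digested in EDTA followed by collagenase A with DNase I. Each group holds 1 library. The title of the series speaks of simulated microgravity, radiation and the compound CB001, whereas the sample labels say no more than control and model. They state neither what the model animals received nor the number, strain, age or sex of the animals, nor the stretch of intestine. A library given the compound is not analysed here. Any difference below is therefore between 2 libraries, with no replicate check and no test.

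Endothelial cells form a continuous layer whose type changes along the vessel. Arterial endothelium depends on Notch signalling and carries connexins and elastic fibre proteins, capillary endothelium takes up fatty acids and exchanges solutes through fenestrae, and the endothelium of postcapillary venules displays selectins and adhesion molecules on which leukocytes roll and arrest. In the gut, the addressin MAdCAM-1 (Madcam1) on venules binds the integrin that lymphocytes use to home to the intestinal wall.

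Genes of venules and of arteries are described most closely below, and the 250 bases before the annotated start of 4 of them are shown for reference. Among the genes eligible for naming, ordered by the bound of the ratio's interval that lies closest to 1, Selp (P-selectin) and Madcam1 were the 2 furthest below the control level in the model library, and Gja4 (connexin 37) and Sema3g (a semaphorin of arterial endothelium) stood among the 15 furthest above it. The sequences are RefSeq's, matched by gene symbol, on build GRCm38.p6, which is older than GRCm39, the build in the submitters' processing notes. They are chr1:164115014-164115263 on the plus strand for Selp, chr10:79664309-79664558 on the plus strand for Madcam1, chr4:127314040-127314289 on the minus strand for Gja4 and chr14:31217623-31217872 on the plus strand for Sema3g. All lie upstream of the gene and are written 5′ to 3′ on the strand of the gene, with matches to 3 motifs in capitals.
Selp: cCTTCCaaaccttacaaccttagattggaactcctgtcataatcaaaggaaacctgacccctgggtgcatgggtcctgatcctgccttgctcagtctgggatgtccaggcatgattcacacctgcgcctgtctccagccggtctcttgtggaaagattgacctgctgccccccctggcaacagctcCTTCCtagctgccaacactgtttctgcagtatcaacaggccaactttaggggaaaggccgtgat
Madcam1: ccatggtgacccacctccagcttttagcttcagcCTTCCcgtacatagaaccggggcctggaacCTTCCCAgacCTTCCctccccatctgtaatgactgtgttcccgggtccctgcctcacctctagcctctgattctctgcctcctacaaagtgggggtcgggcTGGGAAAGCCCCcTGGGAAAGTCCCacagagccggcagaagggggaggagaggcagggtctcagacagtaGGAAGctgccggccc
Gja4: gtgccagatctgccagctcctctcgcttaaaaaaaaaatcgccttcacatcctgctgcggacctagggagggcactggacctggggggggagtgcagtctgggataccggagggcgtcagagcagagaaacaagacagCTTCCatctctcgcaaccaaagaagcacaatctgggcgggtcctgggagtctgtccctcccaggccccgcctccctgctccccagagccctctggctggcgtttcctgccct
Sema3g: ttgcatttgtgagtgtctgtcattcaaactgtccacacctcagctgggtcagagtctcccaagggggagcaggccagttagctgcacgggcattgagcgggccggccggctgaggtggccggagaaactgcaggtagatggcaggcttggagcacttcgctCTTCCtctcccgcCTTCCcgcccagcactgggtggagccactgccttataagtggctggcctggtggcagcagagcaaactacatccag
The motifs, searched on both strands, were GGG followed by any 2 bases and TTTCC for NF-kB, TGGGAA for RBPJ, the DNA-binding partner of Notch, and GGAAG for the ETS factors of endothelium. Madcam1 held 2 matches to the NF-kB motif, which start 83 and 70 bases before the gene and each overlap an RBPJ match, while the other promoters held none. Of 32536 distinct RefSeq promoter windows of this length, 1.40% held the NF-kB motif, 21.6% the RBPJ motif and 64.1% the ETS motif. The RBPJ motif matched 3 times in Madcam1 and in none of the other windows, and the ETS motif matched in all 4. A match is a description of these letters and not a binding site.

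Genes that the rule did not use also marked the cells as endothelial. The cells were chosen for endothelial transcripts, so these levels are a description. Levels are given as CPM, counts of a gene per mega-UMI of the cells summed. The 7 rule genes ran from 514 CPM (Emcn) to 1914 CPM (Plvap, the protein of fenestral diaphragms) over both libraries, against 1.68 to 8.91 CPM in the kept cells outside the rule. Of 34 other endothelial genes, 31 had at least 30 UMIs in both libraries together. Ptprb, the endothelial receptor phosphatase VE-PTP, was at 2606 CPM against 4.72 CPM outside. Sox18 and Sox17, transcription factors of endothelium, were 575-fold and 563-fold above the cells outside, and Sema3g 824-fold. Lymphatic genes were low, with 0 UMIs of Lyve1, Ccl21a, Mmrn1, Reln and Pdpn and 13 of Flt4, whereas the 15 Prox1-positive cells that otherwise met the rule held 676 UMIs of Mmrn1 and 337 of Lyve1. The list of 11 lymphatic genes summed to 41 UMIs in control and 8 in model. Among them Fgl2 had 25 UMIs in 8 of the cells marked below as venular and 4 in 4 of those with arterial marks only. Of the proliferation list only Pcna and Hmgb2, 2 of 30 genes, reached 30 UMIs.

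Some chosen cells carried transcripts of other cell types. In 2 control cells and no model cell Ptprc, the leukocyte antigen CD45, was detected, and those 2 cells held 28 of 28 control UMIs of Siglech, 44 of 44 of Tyrobp and 43 of 48 of Irf8, with 0 of Flt1, Plvap, Fabp4 and Cldn5. Both had exactly 3 rule genes, the minimum, and their genes are those of plasmacytoid dendritic and other myeloid cells. The summed myeloid list was at 463 CPM in control and 66.8 CPM in model endothelium. Genes of mural cells, the muscle cells and pericytes around vessels, summed to 2123 and 1762 CPM, and 7 control and 4 model cells held at least 2 of the 15 listed. Such cells included 4 of the control and 4 of the model cells with arterial marks only. At least 2 fibroblast genes were found in 4 control cells and no model cell, and at least 2 enteric glial or mesothelial genes in none. Epithelial genes summed to 2123 and 1612 CPM, against 31200 and 31013 CPM in the cells outside, and B and plasma cell genes to 1774 and 2430 CPM against 45648 and 46558 CPM. The part of such transcripts in the differences below was not tested, except where values without cells carrying genes of other cell types are given. Those values leave out cells with Ptprc or with at least 2 fibroblast, mural, myeloid, enteric glial or mesothelial genes. This kept 26 control and 41 model cells. Epithelial, T cell, and B and plasma cell genes played no part in that choice.

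At the edge of the rule, 5 control and 5 model cells had exactly 3 rule genes, with a median of 1 and 7 of the other endothelial genes. Just outside it, 12 control and 6 model cells had 2 rule genes, with a median of 2 and 1.5 of them, and 10 and 5 of these cells held Ptprc. Cells with 5 or more rule genes, 31 in control and 34 in model, were the bulk of both samples.

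The endothelial share of the 2 libraries differed by less than counting error. They were 0.505% of kept cells in control (exact Clopper-Pearson 95% interval 0.356 to 0.695%) and 0.581% in model (0.426 to 0.775%), a ratio of 1.15 with a 95% interval of 0.731 to 1.83. All intervals in the text cover counting error only. The model cells were the shallower ones. They held a median of 2511 UMIs (593 to 8780) and 1300.5 genes, against 3872 UMIs (726 to 16870) and 1935 genes in control, and the summed depth was 119758 UMIs against 183726. Their median mitochondrial share was 4.28% in model and 2.86% in control. The kept cells as a whole went the other way, at 5.38% in model and 10.8% in control. A mitochondrial limit of 10% left 3504 cells of the denominator in control and 5540 in model, and so took more of it in control. With no mitochondrial limit the denominators were 9326 in control and 10393 in model, against 7329 and 7913 here. The limit used thus took no larger share in control. No endothelial barcode occurred in both libraries, although 12 barcodes of all kept cells did.

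The cells were sorted into vessel types by marker genes. The marks were chosen after the values had been seen, as at least 2 of Ackr1, Selp and Madcam1 for venules, at least 2 of Gja4, Gja5, Hey1, Sema3g, Dll4 and Fbln5 for arteries, and at least 2 of Rgcc, Cd36, Gpihbp1, Cd300lg and Car4 for capillaries, with the venule mark taking precedence. The venule mark was all or none. Each of 9 control and 2 model cells held UMIs of all 3 genes, and no other endothelial cell held a UMI of any of them. Venule-marked cells were 24.3% of control endothelium (11.8 to 41.2%) and 4.35% of model endothelium (0.531 to 14.8%), a ratio of 0.179 (0.0188 to 0.864). The ratio of the venule-marked share has an interval that includes 1 with a mitochondrial limit of 10%, with at least 1000 UMIs a barcode and when all kept cells were thinned before the choice (42 control and 37 model cells), at log2 ratios of -2.21, -2.21 and -2.14. Artery-marked cells without capillary marks were 9 of 37 in control (24.3%, 11.8 to 41.2%) and 22 of 46 in model (47.8%, 32.9 to 63.1%), a ratio of 1.97 whose interval, 0.870 to 4.85, includes 1. Cells with capillary marks only numbered 6 and 12, cells with both arterial and capillary marks 7 and 3, and unmarked cells 6 and 7, all with ratio intervals that include 1. The unmarked cells of the 2 libraries were unlike. They had medians of 3034 UMIs and a mitochondrial share of 2.82% in control, against 741 UMIs and 17.8% in model. The control ones include the 2 cells with Ptprc. Detection rises with depth, and the deeper control cells had the better chance of a mark. With the 35 control and 36 model cells of at least 1000 UMIs thinned to that number, which leaves out 2 and 10 shallower cells, Selp was seen in 14.3% of control and 5.56% of model endothelial cells and Sema3g in 25.7% and 47.2%. In the cells outside the rule, thinned the same way, 0.179% of control and 0.0141% of model cells held Selp, and 0.0488% and 0.113% held Sema3g.

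**Figure D1:**
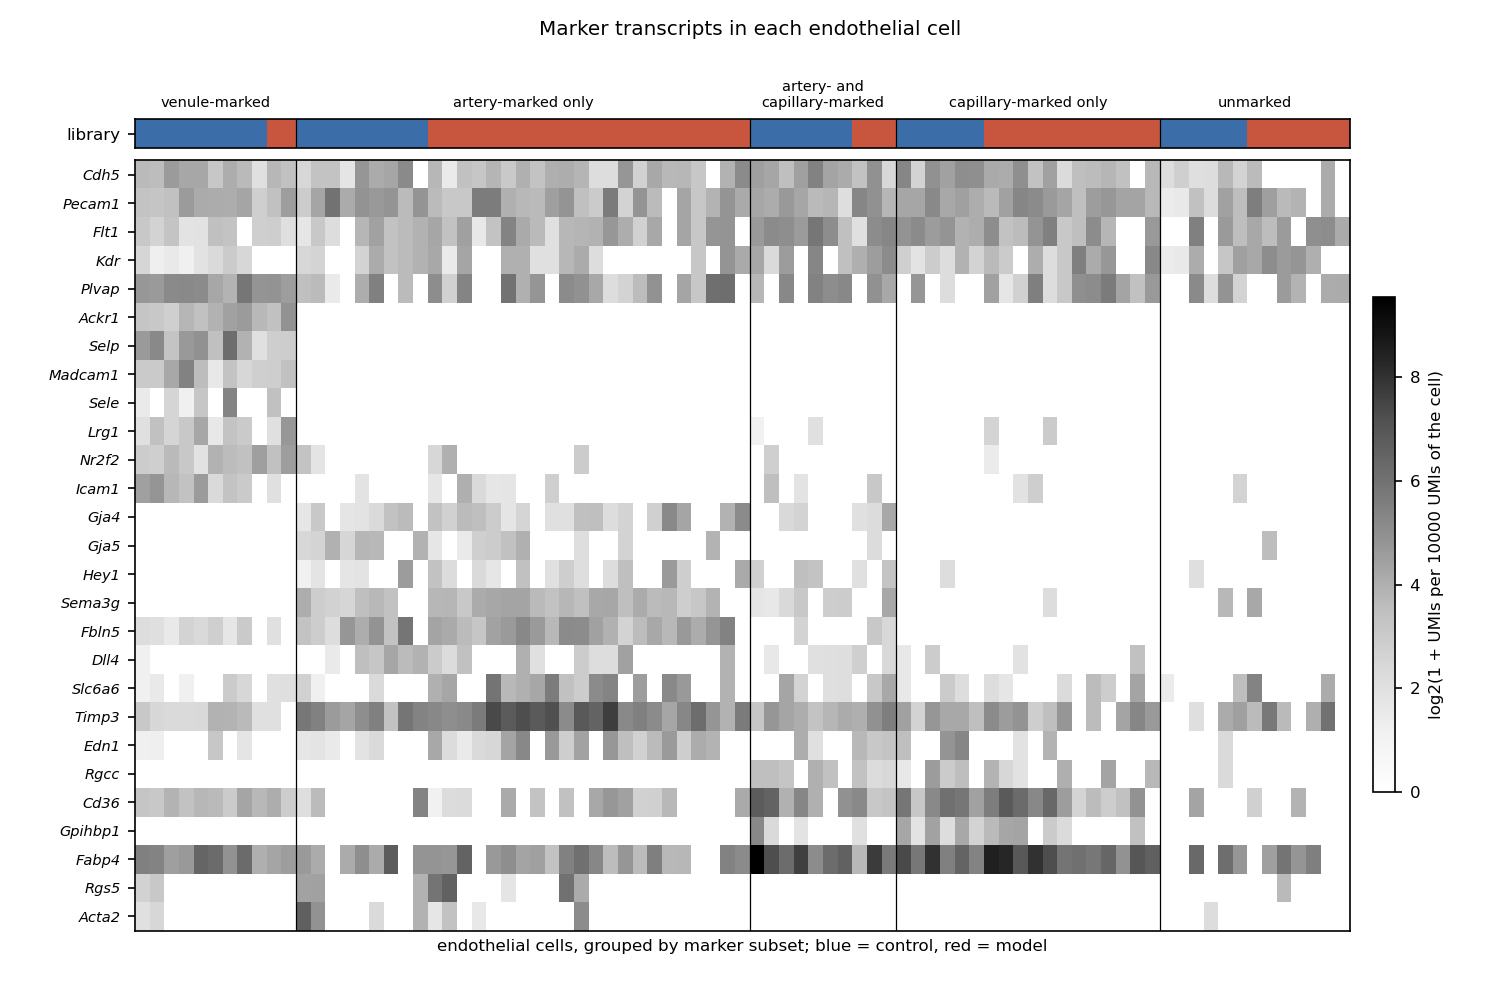
Each column is 1 of the 83 endothelial cells and each row a marker gene, with grey level giving log2(1 + UMIs per 10000 UMIs of the cell), columns grouped by marker subset and coloured by library (blue control, red model). Ackr1, Selp and Madcam1 share 11 cells, 9 of them control, while Gja4, Sema3g and Timp3 fill the artery-marked columns, 22 of 31 from the model library.

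**Figure D2:**
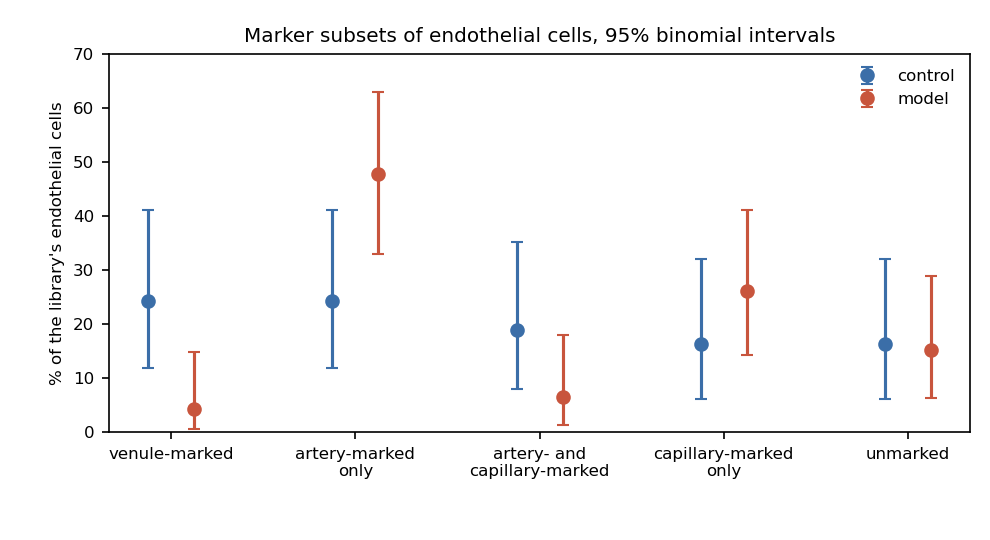
Points are the percent of each library's endothelial cells in a marker subset (y axis), with exact 95% binomial intervals as bars, control blue and model red. Venule-marked cells were 24.3% of control and 4.35% of model cells, and artery-marked cells without capillary marks 24.3% and 47.8%.

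The subsets weigh unequally in summed counts. Venule-marked cells were the largest, with a median of 7321 UMIs in control and 3167.5 in model, and held 40.8% of control but 5.29% of model endothelial UMIs. Artery-marked cells without capillary marks held 19.5% and 56.7%. Sums over all endothelial cells therefore compare mixtures, and for most lists and some genes the value without the venule-marked cells is given too. Leaving these cells out does not make the mixtures alike. Artery-marked cells without capillary marks held 35861 UMIs in control and 67902 in model, and cells with both marks 31935 and 8352. Values without the venule-marked cells are thus not free of subset make-up.

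Over all endothelial cells, 1879 genes had at least 30 UMIs in both libraries together. The model over control ratio of CPM was at least 2 for 74 of them (3.94%) and at most 0.5 for 108 (5.75%), a size rule with no test behind it. The median log2 ratio over these genes was -0.02.

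Most venous genes were lower in the model library. Of 13 measured members of a venous list of 17 genes, 8 were past 2-fold lower and none higher, with a median log2 ratio of -1.33 (order-statistic 95% interval -2.84 to -0.38). Selp, which encodes the P-selectin that captures rolling leukocytes, had 191 UMIs in control and 4 in model, or 1040 and 33.4 CPM, a ratio of 0.0321 (0.00867 to 0.0836). All of these UMIs lay in the venule-marked cells. Per 10000 UMIs of a cell, the 9 control cells ranged from 3.04 to 71.6 Selp UMIs with a median of 24.3, and the 2 model cells were at 6.27 and 6.36. The groups overlap, with model cells above the lowest control cell. Madcam1 had 91 and 5 UMIs, a ratio of 0.0843 (0.0267 to 0.204). Within the venule-marked cells its level per cell was 1.97 to 42.4 in control and 6.27 and 9.54 in model, inside the control range. Ackr1, a scavenging chemokine receptor of venules, had 79 and 12 UMIs, and its venule-marked cells lay at 5.81 to 23.2 in control and at 9.40 and 28.6 in model. Sele (E-selectin), with 33 and 3 UMIs, was found in 5 control cells and 1 model cell. Levels within the venule-marked cells rest on 2 model cells. Outside these cells 2 genes of the venous list were measured, both above a log2 ratio of 0 (median 0.85).

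Some other genes low in the model library had most of their UMIs in the same 11 cells. Adgrg6 (98 and 9 UMIs), an adhesion G protein-coupled receptor, had all its UMIs in venule-marked cells, and Hdc (44 and 2), the enzyme that makes histamine, had 45 of 46 there. Icam1, the ligand of leukocyte integrins, had 130 and 22 UMIs, a ratio of 0.260 (0.157 to 0.410), and 123 of 152 UMIs were in venule-marked cells. Without them its log2 ratio turned to 1.33, on 29 UMIs. Lrg1 (54 and 14 UMIs), Nfkbia, the inhibitor that NF-kB induces (319 and 120), Cysltr1, a leukotriene receptor (49 and 13), and Slco2a1, a prostaglandin transporter (190 and 74), were above 0 without those cells, at log2 ratios of 1.26, 0.83, 0.68 and 0.56. The UMIs left were few for Lrg1 (2 in control and 5 in model) and Cysltr1 (6 and 10), and more for Nfkbia (56 and 104) and Slco2a1 (35 and 54). Calcrl, the receptor partner of RAMP2 for adrenomedullin, had 112 and 22 UMIs, a ratio of 0.301 (0.182 to 0.479), and stayed below 1 without those cells at a log2 ratio of -0.55.

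The leukocyte adhesion and chemokine list had 7 of 15 measured genes past 2-fold lower and 0 higher (median log2 ratio -0.56), and the NF-kB and cytokine list 7 of 14 lower and 1 higher (-0.91). The single higher member, Tnfaip2, had 10 and 29 UMIs. The lists overlap, so their counts are not separate. Icam1 belongs to the venous and NF-kB lists, and the chemokine Cxcl10 to the adhesion list and the interferon-gamma list below. Without the venule-marked cells, in which 1366 genes were measured (3.95% past 2-fold higher, 4.98% lower), the NF-kB list had 1 of 8 genes higher and 0 lower, with a median of 0.55 (-0.23 to 1.80), and the adhesion list 2 of 9 lower (median -0.06). Immediate early genes had 6 of 27 past 2-fold lower, with a median of -0.41 that became 0.20 (0.03 to 0.45) without the venule-marked cells. Zfp36, an mRNA decay factor, had 862 and 240 UMIs, a ratio of 0.427 (0.369 to 0.493), and 666 of its 1102 UMIs were in venule-marked cells. Of the heat shock list 3 of 11 were lower (median -0.60), among them Hspa1a with 172 and 40 UMIs, whose reads are hard to tell from those of its near-identical copy Hspa1b, and 0 of 10 without the venule-marked cells (-0.16).

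Of 10 measured genes of the interferon-gamma and MHC class II list 5 were past 2-fold lower, including H2-Aa with 38 UMIs in control and 0 in model. Of these 38 UMIs 32 lay in the 2 control cells with Ptprc, as did 51 of 61 control UMIs of Cd74. Iigp1, an interferon-induced GTPase, had 184 and 47 UMIs (ratio 0.392, 0.278 to 0.542) and Cxcl10 34 and 4. Of 5 measured type I interferon genes only Bst2 was past 2-fold lower (115 and 30 UMIs), and all 5 ratios were below 1. Over both libraries 33 UMIs of Bst2 lay in 4 unmarked cells, at 1199 CPM in that subset against 318 to 596 CPM in the others. The 2 control cells with Ptprc were unmarked, and their part in the Bst2 difference was not tested. MHC class I had 2 of 13 lower and 0 higher, with H2-K1 at 459 and 270 UMIs, a ratio of 0.902 (0.774 to 1.05). Without the venule-marked cells the interferon-gamma and MHC class II list had 2 of 6 genes lower (median -0.53), the type I interferon list 1 of 5 (-0.25) and MHC class I 1 of 10 (-0.15), with 0 higher in each.

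**Figure D3:**
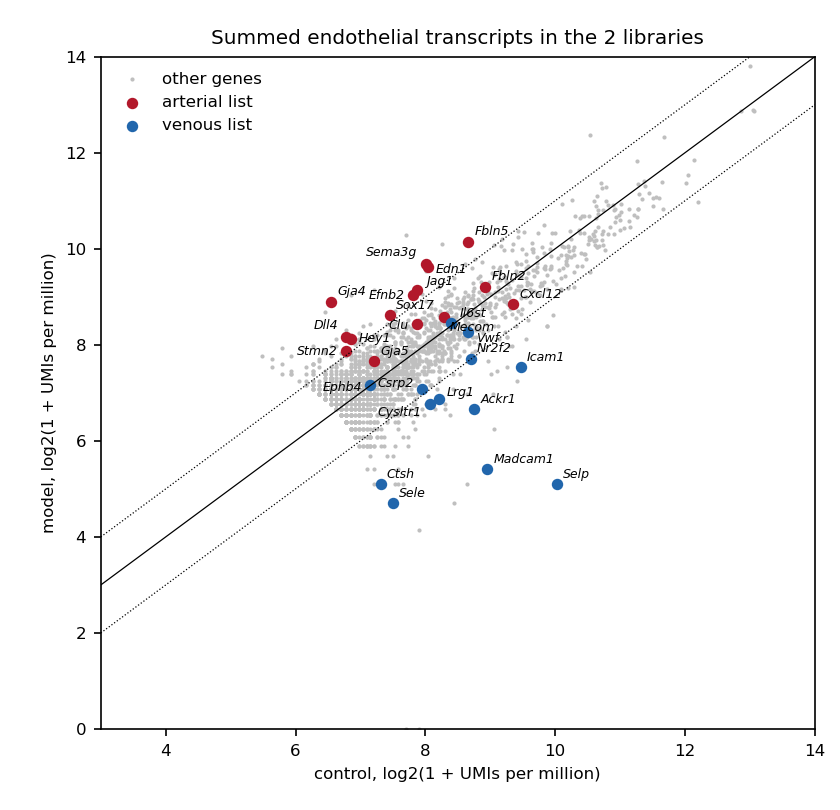
Each point is 1 of 1879 genes, placed by log2(1 + CPM) summed over the control (x axis) and model (y axis) endothelial cells; the solid line marks equal levels and the dotted lines 2-fold. Of the labelled lists, 10 of 15 arterial genes (red) lie at or above the upper dotted line and 8 of 13 venous genes (blue) at or below the lower one.

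Most arterial genes were higher in the model library. Of 15 measured members of an arterial list of 19, 10 were past 2-fold higher and none lower, with a median log2 ratio of 1.24 (0.45 to 1.495). Without the venule-marked cells 4 of 15 were past 2-fold higher and 1 lower, with a median of 0.68 (0.18 to 1.07). Gja4 had 17 UMIs in 9 control cells and 57 in 21 model cells, or 92.5 and 476 CPM, a ratio of 5.14 (2.95 to 9.43). Sema3g had 47 and 98 UMIs (ratio 3.20, 2.24 to 4.63) and Fbln5, an elastic fibre protein, 74 and 136 (2.82, 2.11 to 3.79). In artery-marked cells without capillary marks, which these genes helped to choose, the log2 ratios of Gja4, Sema3g and Fbln5 were 1.05, 0.57 and 0.63. Edn1, the vasoconstrictor endothelin 1, had 48 and 94 UMIs (3.004, 2.10 to 4.35). Efnb2, the arterial ephrin, had 41 and 63 (2.36, 1.57 to 3.58). Gja5, another arterial connexin, had 27 and 24 UMIs, a ratio of 1.36 whose interval, 0.753 to 2.45, includes 1. Cxcl12, a chemokine, was the only member below 1, with 120 and 55 UMIs (0.703, 0.501 to 0.975).

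The Notch list, which shares Dll4, Jag1 and Hey1 with the arterial one, had 4 of 8 measured genes of 18 past 2-fold higher, 0 lower, and all 8 above a ratio of 1 (median log2 ratio 1.07). Among the ligands, Dll4 had 20 and 34 UMIs (2.61, 1.46 to 4.78), Jag1 43 and 68 (2.43, 1.63 to 3.64) and Jag2 8 and 26 (4.99, 2.19 to 12.7). The receptors were closer to 1, with Notch1 at 74 and 57 UMIs (1.18, 0.822 to 1.69) and Notch4 at 16 and 19 (1.82, 0.887 to 3.79). Of the targets, Hey1 had 21 and 33 UMIs (2.41, 1.35 to 4.38) and Hes1 59 and 41 (1.07, 0.698 to 1.62). Without the venule-marked cells Jag1 and Jag2 remained past 2-fold and the list's median was 0.63.

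Ordered by the lower bound of the ratio, Slc6a6 and Timp3 stood highest among the genes eligible for naming, and neither was an artery mark. Slc6a6, the taurine transporter, had 38 UMIs in 17 control cells and 149 in 27 model cells, or 207 and 1244 CPM, a ratio of 6.02 (4.19 to 8.83). In artery-marked cells without capillary marks it was seen in 3 of 9 control and 15 of 22 model cells, with 7 and 124 UMIs, a ratio of 9.36 (4.41 to 23.8). Per 10000 UMIs the control cells of that subset reached 5.52 with a median of 0, and the model cells 59.9 with a median of 14.2. Of the 22 model cells, 15 lay above every control cell. Slc6a6 was named for its summed ratio, and 124 of its 149 model UMIs lie in these cells. A high value in this subset was therefore largely fixed by the choice. Cells of the same library are not replicates, so the count of cells is a description only. The control cell at 5.52 also held 96.1 UMIs of the muscle gene Acta2 per 10000. Of the subset's cells 4 of 9 in control and 18 of 22 in model remain without cells carrying genes of other cell types. The same cells underlie the values of Timp3 and Edn1 in this subset below, and the same limits hold for them. Slc6a6 is not particular to endothelium, with 169 CPM in the kept cells outside the rule. At 1000 UMIs a cell it was seen in 11.4% of control endothelial cells against 11.9% of control cells outside the rule, and in 58.3% of model endothelial cells against 13.6% of model cells outside the rule. Before thinning these shares were 45.9% against 37.1% in control and 58.7% against 44.6% in model. Whether the control share is background was not tested.

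Timp3, an inhibitor of matrix metalloproteinases, had 273 and 634 UMIs, or 1486 and 5294 CPM, a ratio of 3.56 (3.09 to 4.12). It was 114-fold above the cells outside the rule and was found in 34 of 37 control and 41 of 46 model cells. Artery-marked cells without capillary marks held 670 of its 907 UMIs. There its cells ranged from 9.08 to 57.5 per 10000 UMIs in control and from 13.9 to 200 in model, with medians of 41.3 and 47.4. The summed ratio of 2.07 (1.72 to 2.52) in that subset came with 9 of 22 model cells above the highest control cell, while the medians lay close together. Edn1 had 7 and 81 UMIs in that subset, a ratio of 6.11 (2.84 to 15.7), and 15 of 22 model cells were above the highest control cell. In the cells with capillary marks only it went the other way, with 24 UMIs in 3 control cells and 5 in 2 model cells.

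The other genes of highest ratio were Fn1, the matrix protein fibronectin (21 and 63 UMIs), St8sia6, a sialyltransferase (16 and 49), Azin1, an inhibitor of antizyme (27 and 68), Plat, tissue plasminogen activator (47 and 89), Tmem100, an endothelial membrane protein downstream of BMP signals (9 and 25), Eogt, an O-GlcNAc transferase (11 and 26), Tnfaip2 (10 and 29) and Rgs5 (56 and 131). Rgs5 is a gene of pericytes and its 131 model UMIs came from 6 cells. Without the cells that carry genes of another cell type its log2 ratio turned to -0.42. Acta2 (125 and 18 UMIs) and Tagln (97 and 15), muscle genes among the 15 lowest, came from 7 control cells and from 4 and 3 model cells. The 15 genes of highest ratio were chosen on sums that hold the cells of every subset, most model UMIs being those of artery-marked cells, so that their direction within subsets is largely fixed by the choice. As a description, all 15 were above 1 without the venule-marked cells, as were 684 of all 1366 genes measured there. All 15 were also above 1 in the artery-marked cells without capillary marks, 11 of them past 2-fold. In cells with capillary marks only, 2 of the 15 had at least 20 UMIs, 1 above and 1 below 1. In the artery-marked cells without capillary marks 557 genes were measured. Of these 288 were above 1, with 7.90% past 2-fold higher and 6.28% lower. The arterial list, which holds the marks that chose those cells, had 3 of 14 genes higher and 1 lower there, with a median log2 ratio of 0.52 (-0.40 to 1.05). Of the 15 genes of lowest ratio 8 kept at least 20 UMIs without the venule-marked cells, and 3 of these, Acta2, Tagln and Irf8, were still past 2-fold lower. Without the cells that carry genes of other cell types Acta2 was at a log2 ratio of -1.42, while Tagln and Irf8 turned to 1.75 and 0.17.

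**Figure D4:**
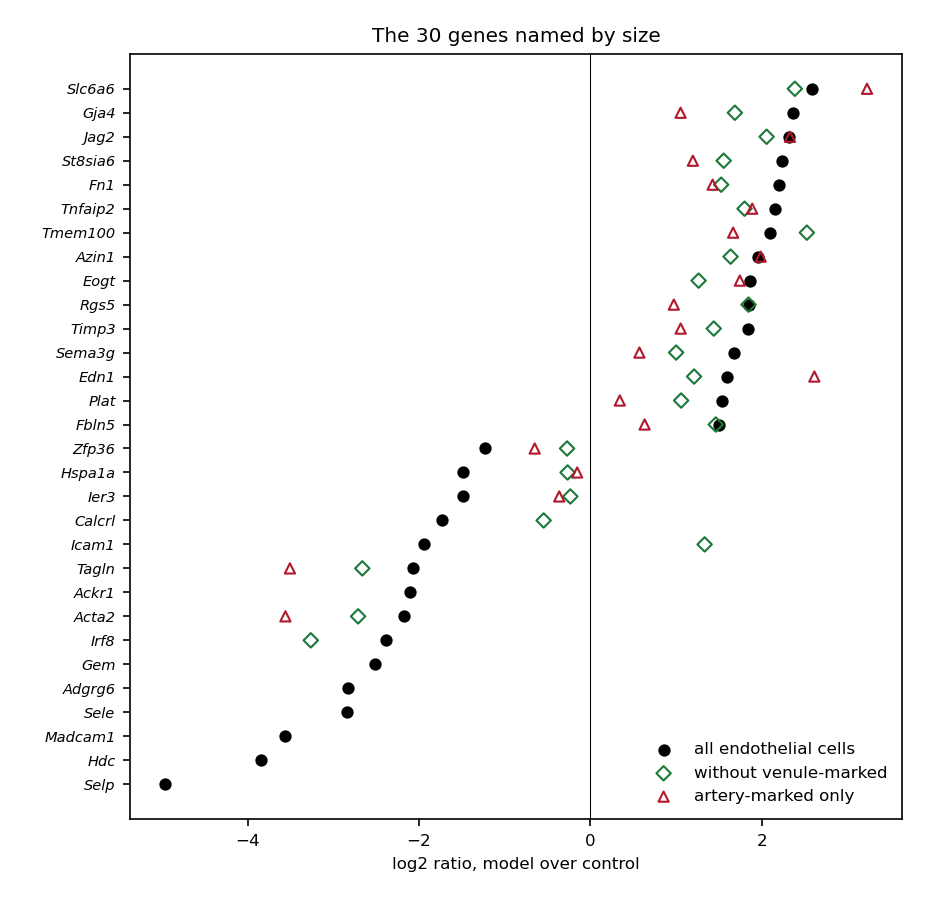
The x axis gives the log2 model over control ratio of the 15 genes of highest and 15 of lowest ratio (rows), in all endothelial cells (black), without the venule-marked cells (green) and in artery-marked cells without capillary marks (red); ratios on fewer than 20 UMIs are left out. All 15 upper genes stay right of 0 in the 3 sets of cells, whereas Zfp36, Hspa1a and Ier3 move towards 0 and Icam1 crosses it once the venule-marked cells are left out.

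Of 14 measured members of a capillary list of 21, 1 was past 2-fold higher, Tcf15, a transcription factor of capillaries (16 and 28 UMIs), and 1 lower, Rbp7 (52 and 12). Without the cell with most Rbp7 UMIs in each library its log2 ratio turned to 1.62. Fabp4, the fatty acid carrier and the most abundant gene named here, had 1577 and 892 UMIs, or 8583 and 7448 CPM, a ratio of 0.868 (0.798 to 0.943). Its cells ranged from 0 to 747 per 10000 UMIs in control and from 0 to 357 in model, and without the cell with most Fabp4 UMIs in each library the log2 ratio turned to 0.18. Cd36, the fatty acid receptor, had 355 and 219 UMIs (0.946, 0.796 to 1.12). In cells with capillary marks only, Fabp4 was higher in model, 1.65-fold (1.41 to 1.93), on 6 and 12 cells. Without the venule-marked cells the list's median was -0.57 (-1.10 to 0.17), with 4 of 14 past 2-fold lower.

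Lists of barrier and vessel-growth genes differed in how many members were past 2-fold, beside 3.94% higher and 5.75% lower over all genes measured. The fenestra and caveola list had 0 of 12 past 2-fold in either direction, with Plvap at 349 and 232 UMIs, a ratio of 1.02 (0.860 to 1.21), and Cav1 at 275 and 142 (0.792, 0.642 to 0.974). Of 13 junction genes, Jam2 (68 and 20 UMIs) and the claudin Cldn5 (123 and 40) were past 2-fold lower, and Cdh5, VE-cadherin, had a ratio of 0.798 (0.646 to 0.983), used in the choice of cells. Of 11 measured VEGF genes 2 were past 2-fold higher and 1 lower. Kdr, the main VEGF receptor and a rule gene, had 109 and 121 UMIs (1.70, 1.30 to 2.23) and Pdgfb, which recruits pericytes, 45 and 64 (2.18, 1.47 to 3.27). Nrp2, a co-receptor, was lower at 37 and 11. In the BMP and TGF-beta list 3 of 14 were past 2-fold higher, the inhibitory Smad6 (14 and 21) and Smad7 (54 and 71) and the latent TGF-beta binding protein Ltbp4 (106 and 142), and 0 lower. Matrix genes had 4 of 19 higher, Timp3, Fn1, Fbln5 and the laminin Lamb2 (22 and 31), and Bgn lower (63 and 20). With the venule-marked cells left out, 0 of 11 fenestra, 0 of 9 VEGF and 0 of 12 BMP and TGF-beta genes were past 2-fold, against 1 higher and 1 lower of 12 junction genes and 3 higher and 1 lower of 18 matrix genes. Of the shear-response genes Klf2 was at 455 and 313 UMIs, a ratio of 1.06 (0.911 to 1.22), and Klf4 at 187 and 153 (1.26, 1.01 to 1.56). The p53 list, of which 6 of 35 genes were measured, had Bax higher (14 and 21 UMIs, 2.30, 1.12 to 4.89), and Cdkn1a at 60 and 62 UMIs had a ratio of 1.59 (1.09 to 2.30).

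Transport and clotting genes held a few members past 2-fold. Of 10 measured carriers, Slc6a6 and the polyamine transporter Atp13a3 (14 and 30 UMIs) were past 2-fold higher and Slco3a1 (40 and 12) lower. In the coagulation list of 9 measured genes Plat and Entpd1, an enzyme that breaks down extracellular ATP (23 and 33), were higher and none lower, and Vwf, von Willebrand factor, had 74 and 37 UMIs, a ratio of 0.767 (0.502 to 1.15). Vwf belongs to the venous list too, and without the venule-marked cells its ratio was 1.92. Mitochondrially encoded genes were within 2-fold for all 12 measured, with a median log2 ratio of 0.47. Among the 30 genes furthest above the cells outside the rule, 5 were past 2-fold higher and 1 lower. Over all genes measured these shares were 3.94% and 5.75%. The counts are not alike, since the 30 were chosen without the minimum of 30 UMIs. Ccdc85a, whose interval of 0.967 to 5.73 includes 1, and Ssu2 did not reach it, and Sema3g is an artery mark. The 5 were Sema3g, Ccdc85a (10 and 15 UMIs), Sox17 (32 and 47), Ssu2 (5 and 22) and Gata2, a transcription factor of endothelium (24 and 40). The lower one was Thrsp (40 and 11).

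**Figure D5:**
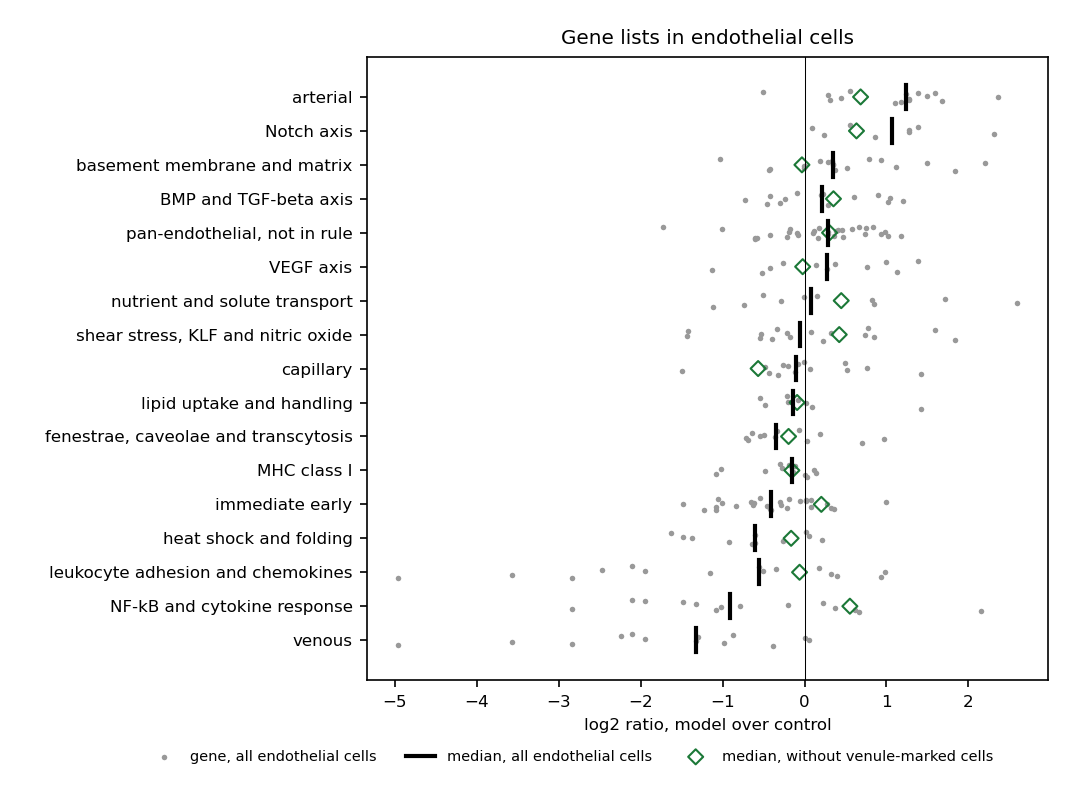
Grey points are the log2 model over control ratios (x axis) of the measured genes of 17 lists (rows) over all endothelial cells, black bars their medians, and green diamonds the medians without the venule-marked cells where at least 3 genes were measured. The arterial median is 1.24, and 0.68 without the venule-marked cells, while the NF-kB median moves from -0.91 to 0.55.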

How the data were processed

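The deposited matrices hold whole-number UMI counts per gene and barcode, without normalisation. Their headers give Cell Ranger 7.0.1 as the counter, while version 4.0 and build GRCm39 stand in the submitters' processing notes. Whether intronic reads were counted, and on which annotation, is not given in the sources used here. The library totals were 61370270 UMIs over 10259 barcodes (control) and 76701215 over 11468 (model).

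UMIs were summed over the endothelial cells of each library and scaled to their total (CPM). Ratios carry exact binomial, shares exact Clopper-Pearson 95% intervals. A gene was measured with at least 30 UMIs in both libraries together. On simulated data from these sums, the intervals held the true ratio for 88% of 100 genes made 4-fold higher (median estimate 3.54), 96.9% of 64 made 4-fold lower and 93.9% of 1734 unchanged genes. The simulated sums were drawn without variation between cells, as the intervals assume. They therefore cannot show the coverage for genes whose UMIs lie in few cells. Scrublet called 0 doublets in either library and was not relied on, so none were removed. Thinning took cells with at least 1000 UMIs to 1000.

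Named are the rule genes, from each list the extremes and the most abundant member, the members of the arterial, venous, capillary and lymphatic lists, the 30 genes most above the other cells, and the 15 highest and 15 lowest ratios by the interval bound nearest 1 (UMIs in at least 5 cells of the higher library; a level not below that of the other cells; no immunoglobulin, T cell receptor, mitochondrial, ribosomal protein, Gm or Rik genes); other genes were picked after their values were seen. The members and lists were chosen with earlier results of these data known. Software was scanpy 1.11.5, numpy 2.4.6 and scipy 1.17.1.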

Additional observations from a re-analysis of the deposited data

How the results depend on the processing

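No paired analysis was possible because each group holds 1 library. A mitochondrial limit of 10% turned the log2 ratio of the endothelial share to -0.62 (main value 0.20), with 35 and 36 cells; it was also below 0 after thinning (-0.39), with at least 1000 UMIs a barcode (-0.17) and with at least 2 rule genes (-0.025). The counts of genes past 2-fold higher and lower, 74 and 108, were 433 and 581 with a minimum of 10 UMIs, 15 and 25 with 100, and 1318 and 1039 with none beyond 1 UMI in each library; the lower count was 54 without cells carrying genes of other cell types and 68 without venule-marked cells. The interval of the venule-marked share's ratio includes 1 with a mitochondrial limit of 10%, at 1000 UMIs a barcode and after thinning, with log2 ratios of -2.21, -2.21 and -2.14. The log2 ratio of the artery-marked share was 0.42 with 1 gene for a mark and 2.11 after thinning. Single genes crossed 0. Without the venule-marked cells these were Apold1 (0.19), Csrp2 (0.35), Cxcl10 (0.35, on 0 and 4 UMIs), Cysltr1 (0.68), Ehd4 (0.45), Flt1 (-0.023), Icam1 (1.33), Lrg1 (1.26, on 2 and 5), Nfkbia (0.83), Nr2f2 (0.15), Nrp2 (0.091), Ptgs1 (0.26, on 4 and 5) and Slco2a1 (0.56). Without cells carrying genes of other cell types they were Apoa1 (0.30), Ccn1 (0.011), Flt1 (-0.067), Irf8 (0.17), Rgs5 (-0.42) and Tagln (1.75). Without the highest cell of each gene they were Apoa1 (0.30), Fabp4 (0.18) and Rbp7 (1.62); with at least 4 rule genes Apoa1 (0.34) and Irf8 (1.10); without Ptprc cells Irf8 (0.79); and without the highest doublet scores Apoa1 (0.35). The cause was not tested. Of 2048 values for 187 genes, 1917 moved by less than their counting interval. The venous list had 2 measured genes without the venule-marked cells. With 37 and 46 cells, a count of 0, by a floor of 3 counts, allows a share of up to 8.11% and 6.52% of endothelial cells.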
